A study of Rattus norvegicus with 3 samples.

Results

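Collagens are the main fibre proteins of bone, fibrocartilage, tendon and joint capsule. Type I collagen, built from the chains of Col1a1 and Col1a2, makes the thick fibrils, type III collagen (Col3a1) joins it in more pliable tissue, and type V collagen (Col5a1 and Col5a2) lies inside type I fibrils and limits their width. Type VI collagen, whose chains include those of Col6a1 and Col6a2, forms beaded filaments around cells, type XIV collagen (Col14a1) attaches to the surface of fibrils, and periostin (Postn) is a secreted protein that binds collagen and takes part in fibril cross-linking. The head of the mandible carries a fibrocartilage on bone, so cells that make these fibres lie beside cells that make the collagens of hyaline cartilage.

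The gene set holds 10 genes of fibrous tissue and bone collagens, chosen by name, and 9 of them were found by name among the 21633 gene identifiers listed in any of the 3 tables. Col6a3, a further chain of type VI collagen, was not found by that name and is not analysed here. Whether an identifier without a gene name stands for it was not determined, and the sums, shares and order of the set below cover the 9 genes only. The study concerns miR-330, a microRNA, and the breakdown of cartilage and bone in the temporomandibular joint under altered loading. Wild-type SD rats received an articular injection of an adeno-associated virus (AAV), and in UAC (unilateral anterior crossbite) the bite was changed with a dental appliance that overloads the joint. The 24 rats made 3 groups, a sham group without UAC given Vector AAV, a UAC group given Vector AAV, and a UAC group given miR-330 AAV, and the condyles of UAC rats were taken 8 weeks after UAC began. The sample labels give the same treatment for both UAC groups, and only the text on the design says that one of them received Vector and the other miR-330. The library titles, UAC establishment group and UAC treatment group, name neither vector. The library titled UAC treatment group was taken as the one with miR-330. No age or sex is given in the labels. Cartilage and subchondral bone of 16 condyles from 8 rats were pooled into 1 library per group, so rats within a group cannot be told apart.

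Each library was a 10x 3′ single-cell library, and UMIs (unique molecular identifiers, the tags that mark captured RNA molecules) summed over the cells of each cluster were recovered from the tables. Depth was 77668015 UMIs in 15 clusters for sham, 92629658 in 18 clusters for UAC, and 97255383 in 19 clusters for UAC + miR-330. A level is a gene's UMI count scaled to 1000000 UMIs of its library or cluster (CPM), with an exact Poisson 95% interval. Shares have exact Clopper-Pearson 95% intervals, and log2 ratios have exact binomial 95% intervals conditional on the summed counts of both libraries. All of these intervals cover counting error only, and with 1 library per group no difference below has a replicate check or a test. Tags lie at the 3′ end of a transcript, so an order of genes by CPM is an order of captured tags and not of protein or of whole transcripts. The comparisons were UAC against sham, which asks what altered loading goes with, and UAC + miR-330 against UAC, which asks what the miR-330 vector goes with under the same loading. Both use the UAC library, so a high or low UAC value enters both with opposite sign.

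In each library a single cluster held most RNA of the set. It was cluster 12 of sham, 16 of UAC and 17 of UAC + miR-330, with 9019928, 5980171 and 5885282 UMIs, and it had the most chondrocyte markers enriched, 19, 18 and 18 of 20. Enriched means at least 10 UMIs and a log2 level of at least 1 over the rest of the library. The same cluster had the most osteogenic markers enriched (9, 10 and 10 of the 10 found by name), fibroblast markers (9, 7 and 9 of 13) and tendon and synovial lining markers (4, 5 and 6 of 8). It is called the chondrocyte-marker cluster here and is compared by its number only. Among its 10 leading genes by fold over the rest, sham had Thbs4, a tendon marker, and Cdh5, an endothelial marker, and no library had a chondrocyte marker among them. The libraries were clustered separately, so the cells behind the cluster may not correspond between libraries. The sample labels name chondrocytes and osteoclasts as the cell types. For osteoclasts, no cluster of any library had more than 2 of 8 markers enriched, Dcstamp, which osteoclast precursors need to fuse, had 0 UMIs in the whole sham and UAC + miR-330 libraries, and Atp6v0d2, Dcstamp, Ocstamp and Calcr were at 0 in the chondrocyte-marker cluster of every library. The other osteoclast markers summed to 391, 499 and 410 CPM in that cluster, led by Nfatc1 at 187 in sham, Ctsk at 260 in UAC and Nfatc1 at 240 in UAC + miR-330, against 293, 284 and 255 CPM for the list over all clusters. Over all clusters the list was led by Acp5, at 149, 112 and 94.5 CPM. The cluster held 3525 of the list's 22752 UMIs in sham, 2983 of 26318 in UAC and 2411 of 24848 in UAC + miR-330.

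Type I collagen dominated the set in every library. Col1a1 (ENSRNOG00000003897), the major chain of type I collagen, was at 57395 CPM in the chondrocyte-marker cluster of sham, 46960 in UAC and 49062 in UAC + miR-330. That was 81.9% of the set's UMIs in sham, 79.7% in UAC and 81.8% in UAC + miR-330. Col1a2 (ENSRNOG00000011292), the partner chain, was at 2348, 1927 and 1173 CPM in the same order. Col3a1 (ENSRNOG00000003357), the type III chain, was at 5091, 4767 and 3624 CPM and stood next after Col1a1 in each library. The 9 genes together took 7.01%, 5.90% and 6.0% of all UMIs of the cluster.

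The type V chains and the type VI chains were each unequal in tags. Col5a1 (ENSRNOG00000008749) was at 148, 176 and 394 CPM and Col5a2 (ENSRNOG00000003736) at 1078, 1193 and 1775 CPM in sham, UAC and UAC + miR-330. Col6a1 (ENSRNOG00000001249) was at 254, 315 and 609 CPM and Col6a2 (ENSRNOG00000001254) at 2028, 1926 and 1851 CPM. These paired genes were highest in UAC + miR-330, except Col6a2, which was highest in sham. Postn (ENSRNOG00000012660), the matricellular member, was at 1767, 1662 and 1479 CPM. Col14a1 (ENSRNOG00000026415), the fibril-associated member, was the lowest in tags, at 8.76, 24.7 and 34.2 CPM from 79, 148 and 201 UMIs.

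The order of the 9 genes by tags was Col1a1, Col3a1, Col1a2, Col6a2, Postn, Col5a2, Col6a1, Col5a1 and Col14a1 in sham, with every pair of neighbours apart in their intervals. In UAC the order was the same, but Col1a2, at 1927 (1892 to 1963) CPM, and Col6a2, at 1926 (1891 to 1961) CPM, did not differ beyond counting error. In UAC + miR-330 Col1a2 stood below Col6a2, Col5a2 and Postn, at 1173 (1146 to 1201) CPM against 1479 (1448 to 1511) for Postn. Col6a1 and Col5a1 kept their places above Col14a1 in all 3 libraries.

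**Figure D1:**
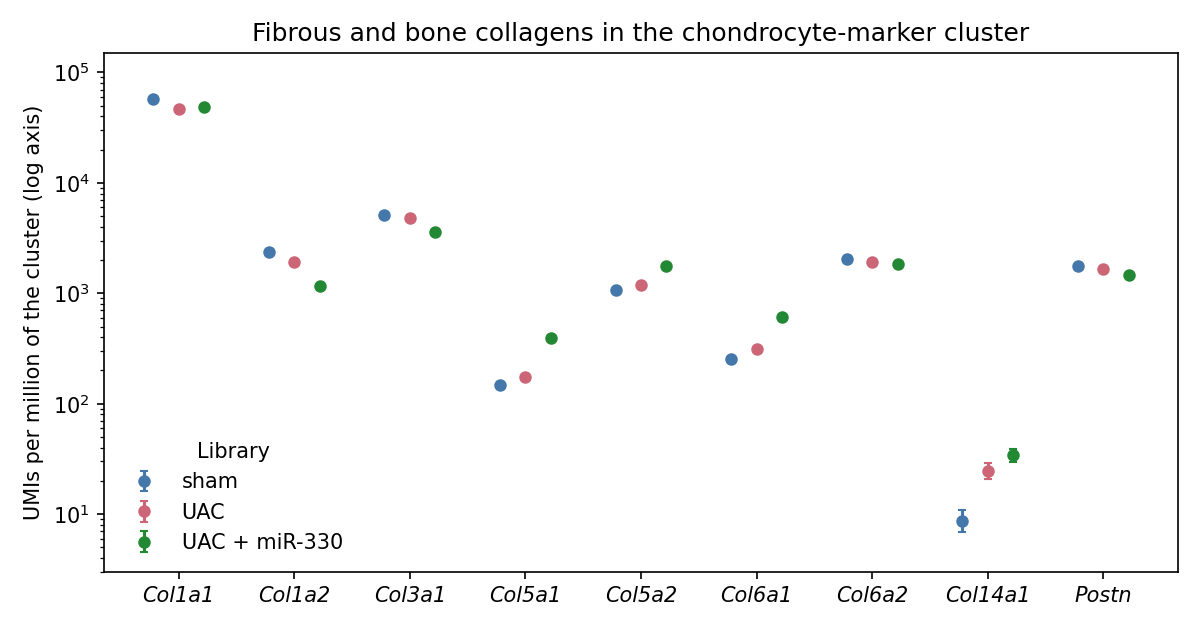
Level of the 9 genes in the chondrocyte-marker cluster of each library, in CPM on a logarithmic axis, with bars for exact Poisson 95% intervals (counting error only). Col5a1 stood at 148, 176 and 394 CPM and Col1a2 at 2348, 1927 and 1173 CPM in sham, UAC and UAC + miR-330.

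Nearly all of the RNA of these genes lay in the chondrocyte-marker cluster. It held 97.3% (97.29% to 97.37%) of Col1a1 UMIs in sham, 97.9% (97.87% to 97.97%) in UAC and 96.9% (96.83% to 96.96%) in UAC + miR-330. For the other genes but Col14a1 the share ran from 96.0%, for Col6a1 in UAC + miR-330, to 98.9%, for Col5a2 in UAC. Col14a1 was spread more widely, with 79.8% (70.5% to 87.2%), 80.9% (74.4% to 86.3%) and 75.8% (70.2% to 80.9%) of its UMIs there. A cluster set against the rest of its library is a description, since the same genes took part in the clustering.

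Col1a1 tags were present in every one of the 49 other clusters. Its median level there was 156 CPM over 14 clusters of sham, 69.6 CPM over 17 of UAC and 55.8 CPM over 18 of UAC + miR-330. RNA free in the droplets gives tags in cells that do not express a gene, and it was not subtracted. The ratio of Col1a1 to Col1a2 tags outside the chondrocyte-marker cluster was 25.8 (23.7 to 28.1) in sham and 22.4 (19.8 to 25.4) in UAC, with intervals that included the ratios of 24.4 inside the cluster. In UAC + miR-330 it was 35.2 (31.1 to 39.9) outside and 41.8 (40.8 to 42.8) inside. The ratio of Col1a1 to Col3a1 was lower outside than inside in all 3 libraries, at 8.17, 6.51 and 11.7 outside and 11.3, 9.85 and 13.5 inside.

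A further cluster in each of sham and UAC + miR-330 stood at least 10 times above the median Col1a1 level of the other clusters. Cluster 14 of sham, with 1.99% of the library's UMIs, had 3105 CPM of Col1a1, 231 of Col3a1, 56.2 of Col5a2 and 43.2 of Postn. Cluster 5 of UAC + miR-330, with 2.92% of the UMIs, had 1458 CPM of Col1a1, 80.4 of Col3a1, 60.3 of Col5a2, 14.8 of Col5a1, 25.7 of Col6a1 and 9.87 of Postn. In UAC the highest of the other clusters was cluster 13, at 125 CPM of Col1a1 and below that limit, with 69.0 CPM of Col2a1 and 174 of Hbb. Both raised clusters also carried bone, cartilage and blood genes: cluster 14 had 311 CPM of Bglap, 91.0 of Ibsp, 59.4 of Runx2, 898 of Col2a1 and 1255 of Hbb, and cluster 5 had 408 of Bglap, 128 of Ibsp, 94.8 of Runx2, 774 of Col2a1 and 2271 of Hbb. Cluster 13 of UAC had 33.6 of Bglap, 4.09 of Ibsp and 66.1 of Runx2. Enriched were 7 erythroid, 5 macrophage and 5 mast and basophil markers in cluster 14 of sham, 6 erythroid and 5 macrophage markers in cluster 5 of UAC + miR-330, and 4 erythroid, 5 macrophage and 5 mast and basophil markers in cluster 13 of UAC. Their ratio of Col1a1 to Postn tags was 71.8 (56.4 to 92.8) and 148 (102 to 223), against 32.5 (32.0 to 33.0) and 33.2 (32.5 to 33.9) in the chondrocyte-marker cluster of the same libraries. Col1a1 to Col1a2 was 33.2 (28.1 to 39.4) and 42.6 (34.9 to 52.7) there, against 24.4 and 41.8, and Col5a2 to Col5a1 was 7.25 (3.95 to 14.6) and 4.07 (2.89 to 5.85), with intervals that included the 7.28 and 4.50 of the chondrocyte-marker cluster. Other pairs stood apart from it: Col1a1 to Col3a1 was 13.4 (12.1 to 15.0) and 18.1 (15.9 to 20.8), against 11.3 and 13.5, and in cluster 5 Col6a2 to Col6a1 was 1.36 (0.992 to 1.86), against 3.04, and Col3a1 to Col5a1 was 5.43 (3.89 to 7.74), against 9.19. In cluster 14 the intervals of these last pairs, at 12.3 (5.98 to 29.2) and 29.8 (16.9 to 58.3), included the 8.0 and 34.4 of the chondrocyte-marker cluster. Doublets could not be found in sums over cells, and the part of free RNA and of doublets in these clusters was not tested.

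**Figure D2:**
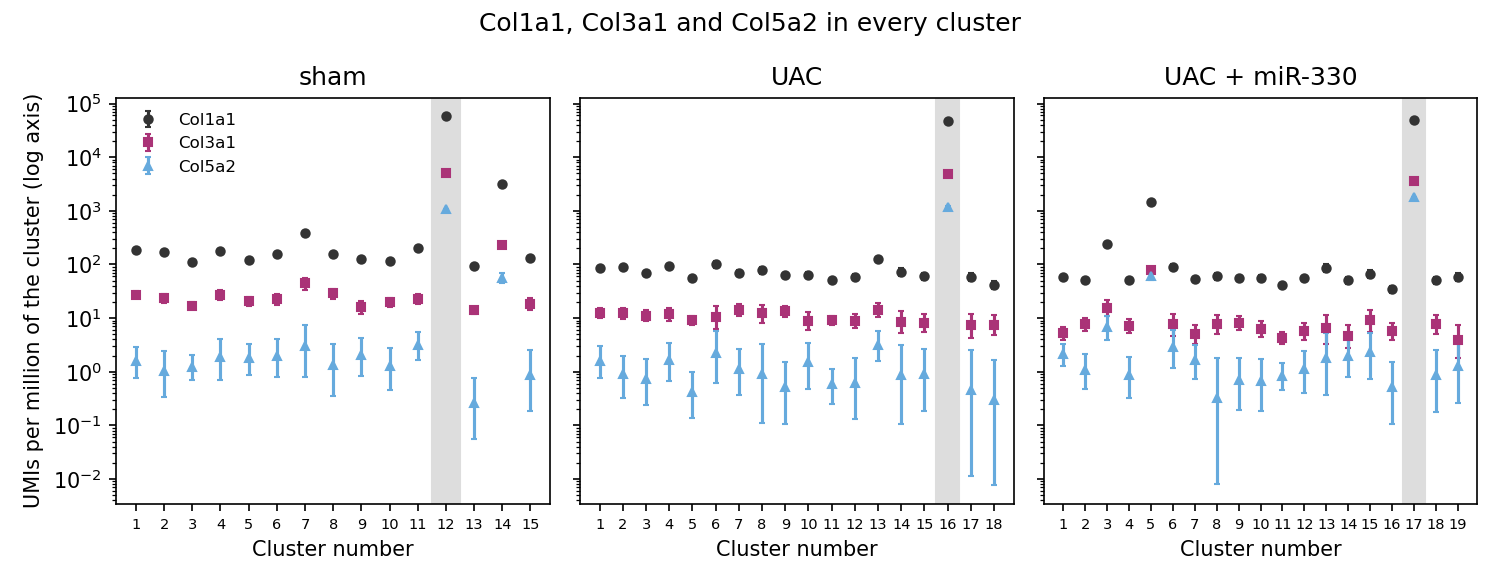
Level of Col1a1, Col3a1 and Col5a2 in every cluster of each library, in CPM on a logarithmic axis, with the chondrocyte-marker cluster shaded. Outside it Col1a1 reached 3105 CPM in cluster 14 of sham and 1458 CPM in cluster 5 of UAC + miR-330, and at most 125 CPM in UAC.

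Other genes followed the same clusters. Across the 52 clusters of the 3 libraries, with 12901 genes compared, the genes whose log level had the highest Pearson correlation with the log of the set's summed level, most of which is Col1a1, were Sparc (r = 0.997), which encodes a collagen-binding matrix protein, Col9a2 (0.994) and Col11a2 (0.992), which encode cartilage collagen chains, and Comp (0.990), a cartilage matrix protein. They were followed by an unnamed gene listed as AABR07068316.1 (0.990), with 43882 UMIs, for which it was not determined whether it is Col6a3, the proteoglycan gene Fmod (0.990), the link protein gene Hapln1 (0.990) and Bglap (0.989), which encodes osteocalcin. The clusters share libraries and depth and are not independent, and a single cluster per library carries most of the spread.

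Summed over all clusters, the set was lower in UAC than in sham. The 9 genes together were at 8373 CPM in sham and 3893 CPM in UAC, a log2 ratio of −1.10. In the chondrocyte-marker cluster alone the sum was 70118 CPM in sham and 58952 in UAC, a log2 ratio of −0.25. That cluster took 11.6% of the UMIs of sham, 6.46% of UAC and 6.05% of UAC + miR-330, and fewer cells and less RNA per cell cannot be told apart in sums over cells. Over all clusters chondrocyte markers summed to 7737, 3486 and 4308 CPM in the same order, osteogenic markers to 1450, 832 and 728, fibroblast markers to 317, 248 and 227, neutrophil markers to 40840, 63096 and 44229, and erythroid markers to 1371, 544 and 1944. Their part in the result was not tested. A gene is called higher or lower below where its CPM differ by a fold of at least 1.5 and the 2 intervals do not overlap.

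Over all clusters 1 of the 9 genes was higher in UAC and 7 were lower, against 6.02% of 14294 genes higher and 5.1% lower among all genes that reached 50 UMIs when both libraries were added. The median log2 ratio was −0.92 for the 9 genes and −0.02 for all genes. Col1a1 fell from 6848 to 3096 CPM, a log2 ratio of −1.15 (−1.15 to −1.14), and Col1a2 from 280 to 127 CPM, a ratio of −1.14 (−1.17 to −1.10). Col3a1 fell from 614 to 318 CPM, a log2 ratio of −0.95. These type I and type III chains moved furthest, followed by Postn, from 211 to 111 CPM, and Col6a2, from 244 to 129 CPM. Of the type V chains Col5a2 fell from 128 to 77.9 CPM, a log2 ratio of −0.71, and Col5a1 from 17.8 to 11.8 CPM. Col5a1 was at the edge of the fold, at −0.59, and with ratios centred on the median of all genes it was at −0.57 and no longer past it. On the deposited mean counts 5 genes were lower, against 3.23% of all genes on that scale, without Col5a1, at −0.40, and Col5a2, at −0.52. Col6a1, at 30.2 and 20.9 CPM, had a log2 ratio of −0.53 (−0.61 to −0.44) and fell short of the fold. Col14a1 rose from 1.27 (1.04 to 1.55) to 1.98 (1.70 to 2.28) CPM, on 99 and 183 UMIs.

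Within the chondrocyte-marker cluster the picture by gene was different. Of the 9 genes 1 was higher in UAC and 0 were lower, against 7.32% of 10059 genes higher and 0.915% lower. The median log2 ratio was −0.07 for the set and 0.14 for all genes. Col14a1 was the gene past the fold, at 8.76 (6.93 to 10.9) CPM in sham and 24.7 (20.9 to 29.1) in UAC, a log2 ratio of 1.49 (1.10 to 1.91).

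The type I chains were at log2 ratios of −0.29 (−0.30 to −0.28) for Col1a1 and −0.28 (−0.32 to −0.25) for Col1a2 in the cluster, inside the fold. Col3a1, at −0.09, Col6a2, at −0.07, and Postn, at −0.09, were below 0 on CPM and above 0, at 0.10, 0.12 and 0.11, on the deposited mean counts. Col5a1 was at 0.25 (0.13 to 0.37), Col5a2 at 0.15 (0.10 to 0.19) and Col6a1 at 0.31 (0.22 to 0.40), and these stayed above 0 with both other scalings, Col5a2 at 0.01 after centring. The type I chains therefore stood below the type V chains in this comparison on every scale used, since a scaling moves all genes by the same amount.

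Markers of other cells differed between the same clusters. The summed level of the 10 neutrophil markers in the chondrocyte-marker cluster was 1234 CPM in sham and 4326 in UAC, led by S100a9 at 495 and 1891. The 8 endothelial markers found by name summed to 90.0 CPM in sham, with 6 enriched, and 40.5 CPM in UAC, with 1 enriched, where Eng was the most abundant at 33.4 and Cdh5, Kdr, Emcn and Tek were at 0. In sham no cluster had more endothelial markers enriched than the chondrocyte-marker cluster. In the other libraries a separate cluster had the most, cluster 15 of UAC with 7 and cluster 14 of UAC + miR-330 with 8. The 6 skeletal muscle markers found by name summed to 133 and 33.4 CPM, led by Tnni2 at 109 and 17.2, with Myh2, Acta1 and Ckm at 0 in both. The 20 chondrocyte markers summed to 64340 and 51519 CPM, led by Col2a1 at 27180 and 19379, and Matn1 was at 0 in UAC. Osteogenic markers were at 11977 and 11908 CPM, led by Bglap at 9537 and 9876, and fibroblast markers at 1251 and 1519, led by Lum at 536 and 583, with Twist2 at 0 in UAC. Tendon and synovial lining markers were at 1939 and 1563 CPM, led by Fmod at 1895 and 1498, and without Fmod at 44.0 and 64.9. Pericyte and smooth muscle markers summed to 25.4 and 51.5 CPM, led by Tagln at 15.3 and 41.1. Mitochondrial genes took 4.34% and 4.39% of UMIs in the cluster and ribosomal protein genes 11.7% and 11.6%. Of the genes that handling of tissue can induce, Fos took 0.0819% in sham and 0.126% in UAC, and Jun 0.0409% and 0.0793%. Their part in the result was not tested.

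Outside the chondrocyte-marker cluster the set was at 261 CPM in sham and 93.6 in UAC. Of the 9 genes 6 were lower there and 0 higher, against 2.19% of 13597 genes lower and 6.62% higher. Col1a1 was at 207 and 68.8 CPM, and without cluster 14 of sham, an alternative chosen after seeing the data, its log2 ratio moved from −1.59 to −1.02. Col5a2, on 180 and 81 UMIs, went from 2.62 to 0.935 CPM there. Without cluster 14 Col5a2, at −0.57, and Postn, at −0.55, were no longer past the fold, so 4 genes were lower, against 1.95% of 13569 genes.

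With the miR-330 vector the summed level of the set stayed close to that of UAC, while single chains moved apart. The sum over all clusters was 3893 CPM in UAC and 3749 in UAC + miR-330, a log2 ratio of −0.05, and it was 0.18 on the deposited mean counts. In the chondrocyte-marker cluster the sum was 58952 and 60001 CPM, a log2 ratio of 0.03 on CPM and 0.26 on the deposited mean counts. Col5a1 and Col6a1 rose and Col1a2 fell.

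In the chondrocyte-marker cluster 2 of the 9 genes were higher in UAC + miR-330 and 1 was lower, against 6.51% of 9806 genes higher and 5.62% lower, and on the deposited mean counts 4 were higher and 0 lower, against 12.6% and 3.52% of all genes on that scale. The median log2 ratio was 0.06 for the set and 0.02 for all genes. Over all clusters 2 were higher and 1 lower as well, against 9.98% of 14545 genes higher and 2.96% lower, with 4 higher and 0 lower on the deposited mean counts, where 24.2% of all genes were higher and 1.53% lower. The median over all clusters was −0.02 for the set and 0.13 for all genes.

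Col5a1, the type V chain with fewer tags, rose from 176 (165 to 187) CPM in UAC to 394 (378 to 411) in UAC + miR-330 in the cluster, a log2 ratio of 1.16 (1.06 to 1.27). Its sham level of 148 (140 to 156) CPM was also below the level with miR-330. Over all clusters it went from 11.8 to 24.6 CPM, a log2 ratio of 1.06 (0.96 to 1.16). Col5a2, its partner chain, was at 1193 (1166 to 1221) and 1775 (1741 to 1809) CPM in the cluster, a fold of 1.49 that lies just inside the limit on CPM and past it on the deposited mean counts, where its log2 ratio was 0.81.

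Col6a1, a chain of the beaded filaments around cells, rose from 315 (301 to 329) to 609 (589 to 629) CPM in the cluster, a log2 ratio of 0.95 (0.87 to 1.03). Over all clusters it rose from 20.9 to 38.4 CPM, a log2 ratio of 0.87 (0.80 to 0.95). Col6a2, which encodes another chain of the same trimer, did not follow: its log2 ratio in the cluster was −0.06 (−0.09 to −0.02) on CPM and 0.18 on the deposited mean counts, and over all clusters −0.16 and 0.08. The genes are neighbours in the rat genome, with 2 genes between them in the RefSeq table of GRCr8.

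Col1a2 was the gene that fell, from 1927 to 1173 CPM in the cluster, with a counting interval for the log2 ratio from −0.76 to −0.67. Over all clusters it went from 127 (125 to 130) to 73.7 (72.0 to 75.4) CPM, a log2 ratio of −0.79. On the deposited mean counts it was at −0.48 in the cluster and −0.55 over all clusters, below 0 but inside the fold. Col1a1, which encodes the other chain of type I collagen, was at 0.06 (0.06 to 0.07) in the cluster, and over all clusters it was at −0.02 on CPM and at 0.22 on the deposited mean counts.

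The remaining genes stayed inside the fold on CPM in the cluster and over all clusters. Col3a1 was at a log2 ratio of −0.40 (−0.42 to −0.37) in the cluster and −0.48 over all clusters, which became −0.61 and past the fold after centring. Col14a1 was at 0.46 (0.15 to 0.78) in the cluster and past the fold on the deposited mean counts, at 0.70. Postn was at −0.17 (−0.21 to −0.13) on CPM and 0.07 on the deposited mean counts in the cluster.

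Among markers of other cells, the neutrophil markers summed to 4326 CPM in the cluster of UAC and 845 in UAC + miR-330, and Ltf was at 0 in the latter. Endothelial markers summed to 40.5 and 33.6 CPM, and Cdh5, Kdr, Emcn, Flt1 and Tek were at 0 with miR-330. Chondrocyte markers summed to 51519 and 67106 CPM, with Col2a1 at 19379 and 24344. Osteogenic markers were at 11908 and 10781 CPM, of which Bglap made 9876 and 7393, and without Bglap they were at 2032 and 3388. Fibroblast markers were at 1519 and 1215 CPM, and tendon and synovial lining markers at 1563 and 1765, led by Fmod at 1498 and 1635, and without Fmod at 64.9 and 130. Skeletal muscle markers went from 33.4 CPM in UAC to 91.4 with miR-330, led by Tnni2 at 17.2 and 73.9, with Myh2 and Acta1 at 0 in both. Pericyte and smooth muscle markers were at 51.5 and 30.9 CPM, led by Tagln at 41.1 and 22.3, with Rgs5 at 0 in both. Ribosomal protein genes took 11.6% and 10.4% of the cluster's UMIs, Fos 0.126% in both, and Jun 0.0793% and 0.0602%. Hspa1b, a heat shock gene, took 0.00179% and 0.000986%, on 107 and 58 UMIs. Their part in the result was not tested.

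Outside the chondrocyte-marker cluster 2 genes were higher with miR-330, Col5a2 and Col6a1, and 1 was lower, Postn, against 10.3% of 13937 genes higher and 2.68% lower. Col5a2 went from 0.935 to 3.16 CPM and Col6a1 from 0.658 to 1.64 CPM, on 81 and 289 and on 57 and 150 UMIs. Without cluster 5 of UAC + miR-330, again chosen after seeing the data, their log2 ratios moved from 1.75 to 0.51 and from 1.31 to 0.40. Then 0 genes were higher and 4 lower, Col1a2, Col3a1, Col6a2 and Postn, against 11.1% of 13889 genes higher and 2.97% lower. Col5a1 had 42 and 73 UMIs outside the cluster, a log2 ratio of 0.71 (0.15 to 1.30), with Poisson intervals of its levels that overlap, and without cluster 5 it was at −0.46 (−1.19 to 0.23).

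Ratios between members of a pair need no scaling between libraries. In the chondrocyte-marker cluster there were 24.4 (24.1 to 24.8) Col1a1 tags per Col1a2 tag in sham, 24.4 (23.9 to 24.8) in UAC and 41.8 (40.8 to 42.8) in UAC + miR-330. The sham and UAC ratios overlapped, and the ratio with miR-330 stood apart from both. Col6a2 to Col6a1 was 8.0 (7.66 to 8.36), 6.12 (5.83 to 6.43) and 3.04 (2.93 to 3.16), so each library stood below the one before. Col5a2 to Col5a1 was 7.28 (6.87 to 7.71), 6.78 (6.36 to 7.24) and 4.50 (4.30 to 4.71), with sham and UAC overlapping. Col3a1 to Col5a1 was 34.4 (32.5 to 36.3), 27.1 (25.5 to 28.8) and 9.19 (8.80 to 9.60), the widest span of these pairs. It joins chains of different collagen types. Like Col5a2 to Col5a1 and Col1a1 to Postn, it was not among the pairs planned for the analysis. Col1a1 to Col3a1 was 11.3 (11.2 to 11.4) in sham, 9.85 (9.73 to 9.97) in UAC and 13.5 (13.4 to 13.7) in UAC + miR-330, lowest in UAC.

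**Figure D3:**
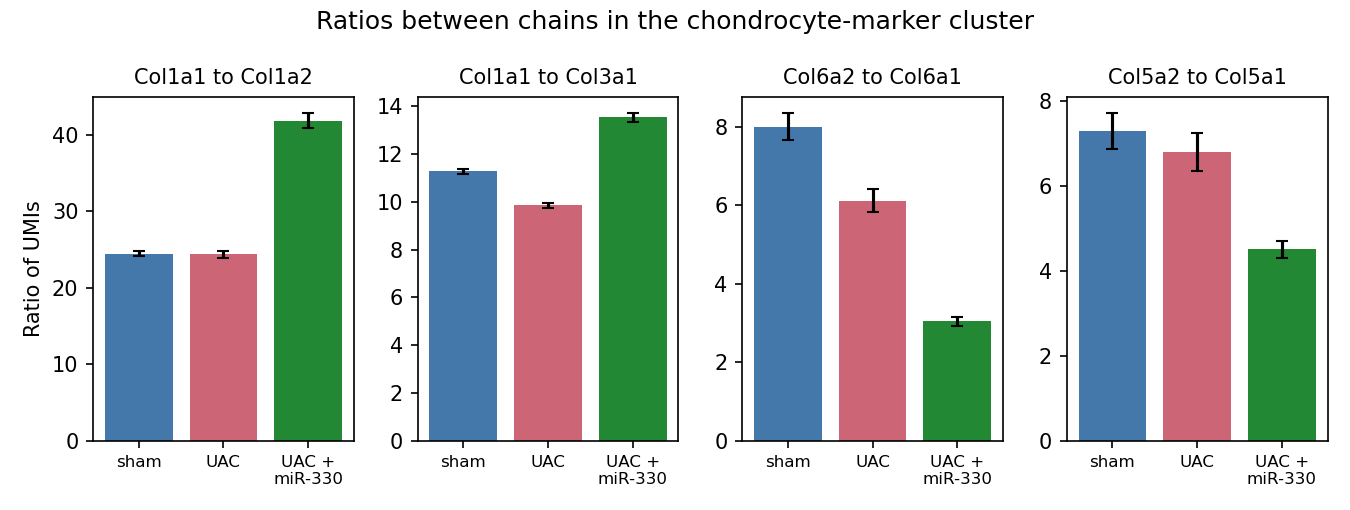
Ratio of tags of paired genes in the chondrocyte-marker cluster of each library, with bars from 0 and exact 95% intervals that cover counting error only. Col1a1 to Col1a2 was 24.4 in sham, 24.4 in UAC and 41.8 in UAC + miR-330, and Col6a2 to Col6a1 was 8.0, 6.12 and 3.04.

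As shares of the set's UMIs in the cluster, Col1a2 made 3.35% in sham, 3.27% in UAC and 1.96% in UAC + miR-330. Col5a1 made 0.211%, 0.298% and 0.657%, Col5a2 1.54%, 2.02% and 2.96%, and Col6a1 0.362%, 0.534% and 1.01%. The shares of Col5a1, Col5a2 and Col6a1 were thus lowest in sham and highest with miR-330, with no overlap of their intervals between libraries. Col3a1 made 7.26%, 8.09% and 6.04%, and Postn 2.52%, 2.82% and 2.47%, both highest in UAC here and highest in sham when the type I chains were left out. Col6a2 stayed between 2.89% in sham and 3.27% in UAC.

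Without type I collagen the type V and type VI chains still took larger shares with miR-330, except Col6a2. Of the UMIs of the 7 other genes Col3a1 made 49.1% in sham, 47.4% in UAC and 37.1% in UAC + miR-330. Col5a2 made 10.4%, 11.9% and 18.2%, and Col6a1 2.44%, 3.13% and 6.24%. Col6a2, at 19.5%, 19.1% and 19.0%, and Postn, at 17.0%, 16.5% and 15.1%, moved least in these shares relative to their size.

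Genes that make, fold, bind and break down collagen were read in the same cluster from 7 lists with 120 of 123 genes found by name. Medians are to be read beside those of all genes in the cluster, 0.14 for UAC against sham and 0.02 for UAC + miR-330 against UAC, and counts beside the 7.32% of all genes that were higher and 0.915% lower in the former, and 6.51% and 5.62% in the latter. In the former comparison the medians of the other collagens, of cross-linking and of the receptors change sign when centred, and that of the folding genes changes sign on the deposited mean counts. Calls of single genes in the lists are on CPM. The deposited mean counts add 0.236 to every log2 ratio with miR-330, and the falls of Mmp13 and Ctsk are then inside the fold. Centring adds −0.135 to every ratio of UAC against sham, and the rises of Timp3, Prrx1 and Col8a1 are then inside it. Other calls near the fold can change as well. Of 13 other collagen chains with at least 50 UMIs, 2 were higher and 1 lower in UAC than in sham, with a median log2 ratio of 0.13, and 4 were higher and 0 lower with miR-330, with a median of 0.33. Col24a1, a fibril-forming chain of bone, was at 110, 105 and 258 CPM in sham, UAC and UAC + miR-330. Col27a1, a fibril-forming chain of cartilage, was at 267, 245 and 427 CPM, and Col12a1, which like type XIV collagen attaches to fibrils, at 1611, 1761 and 2313 CPM. The former pair rose past the fold with miR-330 and Col12a1 did not. Col8a1, a chain of network-forming collagen, was at 13.3, 20.1 and 34.0 CPM and past the fold in both comparisons. The few tags of Col5a3, another type V chain, went from 3.33 to 12.0 CPM with UAC and stood at 7.14 with miR-330. Those of Col18a1, a basement membrane chain, went from 7.21 to 1.17 CPM with UAC, on 65 and 7 UMIs, and stood at 0.680 with miR-330. Endothelial markers in the cluster went from 90.0 to 40.5 CPM with UAC, and without Eng from 56.9 to 7.02. Their part in the fall of Col18a1 was not tested. Col4a2, a basement membrane chain as well, was at 2.34 and 6.97 CPM in the latter comparison, on 14 and 41 UMIs.

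Genes for procollagen folding and secretion stayed inside the fold between sham and UAC in the cluster. Of 23 with enough UMIs 0 were higher and 0 lower there, with a median of −0.05, and with miR-330 3 were higher and 0 lower, with a median of 0.06. Serpinh1, the collagen chaperone, was at 2043, 1773 and 1742 CPM. Plod2, a lysyl hydroxylase whose product sets the type of cross-link, was at 1415, 1404 and 1847 CPM, and Ppib, a prolyl isomerase, at 1070, 1001 and 925. The genes past the fold with miR-330 were P3h2, a prolyl 3-hydroxylase, at 249 and 472 CPM, Colgalt2, a collagen galactosyltransferase, at 174 and 311, and the prolyl 4-hydroxylase subunit P4ha1, at 568 and 938. P4ha1 was named after its values were seen.

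Of 11 genes for propeptide removal and cross-linking 1 was higher and 1 lower in UAC, with a median of 0.11, and 3 were higher and 0 lower with miR-330, with a median of 0.02. Pcolce, which speeds the removal of the C-propeptide of fibrillar procollagens, was at 1009, 862 and 614 CPM. Lox, the lysyl oxidase that starts cross-links, was at 205, 221 and 277 CPM. Loxl2, a related oxidase, rose with miR-330 from 185 to 300 CPM, and Adamts3, a procollagen N-proteinase, from 43.3 to 79.4. Tgm2, a transglutaminase, was at 82.6, 49.5 and 76.0 CPM, lower in UAC and higher with miR-330. Loxl4 rose from 4.43 to 11.7 CPM with UAC, on 40 and 70 UMIs.

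A further list holds proteins that sit on or beside the fibrils. Of 16 such genes 3 were higher and 0 lower in UAC, with a median of 0.37 against 0.14 for all genes, and of 15 with enough UMIs 0 were higher and 2 lower with miR-330, with a median of −0.27 against 0.02. On the deposited mean counts the median with miR-330 was −0.03, against 0.25 for all genes. Aspn, which encodes asporin, a small proteoglycan that binds type I collagen, was at 160, 300 and 93.8 CPM. Eln, the elastin gene, was at 9.76, 22.4 and 11.4 CPM. Both were thus highest in UAC and past the fold in each comparison, and Fbn1, named after its values were seen, rose from 6.43 to 11.9 CPM with UAC. Sparc, the most abundant of the list, was at 36634, 28315 and 29757 CPM, Bgn, a proteoglycan gene, at 9737, 6837 and 5469, and Fn1, the fibronectin gene, at 2692, 2755 and 3231.

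Collagen receptors bind the fibres at the cell surface. Of 10 such genes 1 was higher and 0 lower in UAC, with a median of 0.13, and 2 were higher and 0 lower with miR-330, with a median of 0.23. Ddr2, a receptor kinase for fibrillar collagen, was at 61.2, 72.6 and 118 CPM. Itga1, the α chain of a collagen-binding integrin, was at 29.8, 27.3 and 66.6 CPM, and Itgb1, the β chain of those integrins, at 204, 252 and 298. Antxr1, which binds collagen at the cell surface, rose from 25.4 to 46.2 CPM with UAC. Cspg4, a proteoglycan that binds type VI collagen, was at 348, 324 and 377 CPM.

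In the cluster collagen breakdown was the list with the highest median in UAC. The list holds the inhibitors Timp1, Timp2 and Timp3 beside the proteases, and its counts and medians take both kinds together. Of its 10 genes 5 were higher and 0 lower there, with a median of 0.59, and 1 was higher and 4 lower with miR-330, with a median of −0.33. On the deposited mean counts the median with miR-330 was −0.09, against 0.25 for all genes. The collagenase Mmp8, which neutrophils also express, was at 21.5, 49.0 and 15.8 CPM, and the gelatinase Mmp9, likewise a neutrophil gene, at 11.5, 19.6 and 2.72. Mmp2, another gelatinase, was at 512, 425 and 349 CPM. Timp3, an inhibitor, was at 108, 167 and 253 CPM, higher in both comparisons, while Timp1, another inhibitor, was at 602, 577 and 447. The part of neutrophil RNA in the values of Mmp8 and Mmp9 was not tested. The collagenase Mmp13 was also past the fold on CPM in both comparisons, at 140, 411 and 251 CPM. Mmp14, a membrane-bound protease named after its values were seen, rose from 68.4 to 113 CPM with UAC, and Ctsk, cathepsin K, fell from 260 to 153 CPM with miR-330.

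Of 19 transcription and growth factor inputs 1 was higher and 0 lower in UAC, with a median of 0.28, and 1 was higher and 1 lower with miR-330, with a median of 0.12. Runx2, the transcription factor of osteoblasts and hypertrophic chondrocytes, was at 435, 517 and 839 CPM, past the fold with miR-330. Scx, the tendon factor that acts on Col1a1 and Col1a2, was at 13.7, 17.7 and 10.0 CPM, lower with miR-330. Prrx1, a mesenchymal factor, rose from 102 to 155 CPM with UAC. Larp6, which binds the messages of the type I chains, was at 35.3, 24.7 and 31.9 CPM, inside the fold in both comparisons.

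The lists were also read over all clusters. For UAC against sham, where 6.02% of all genes were higher and 5.1% lower and their median was −0.02, the median on CPM was below 0 in all 7 lists, and on the deposited mean counts that of breakdown was above 0, at 0.03. It was −0.69 for the other collagens, with 0 of 14 genes higher and 8 lower, −0.62 for folding and secretion, with 0 of 24 higher and 12 lower, and −0.74 for propeptide removal and cross-linking, with 1 of 11 higher and 8 lower. Fibril partners had a median of −0.41, with 0 of 16 higher and 6 lower, and receptors one of −0.35, with 1 of 11 higher and 4 lower. For breakdown it was −0.16, with 2 of 10 higher and 3 lower, and for the inputs −0.31, with 0 of 20 higher and 2 lower. With miR-330 against UAC, where 9.98% of all genes were higher and 2.96% lower and their median was 0.13, 6 of 17 other collagens were higher and 0 lower, with a median of 0.29, and 3 of 11 receptors were higher and 0 lower, with a median of 0.53. Folding had 2 of 24 higher and 0 lower, at −0.04, and cross-linking 1 of 11 and 0, at 0.22. Fibril partners had 1 of 16 higher and 3 lower, at −0.21, breakdown 0 of 10 and 2, at −0.24, and the inputs 0 of 20 and 2, at 0.15. On the deposited mean counts the medians of folding, fibril partners and breakdown in this comparison were above 0, at 0.20, 0.02 and 0.000688.

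The third library received a vector for miR-330, and the mature rat forms are shown with their seed, bases 2 to 8, in capitals. They were read from RefSeq on GRCr8, at chr1:87961266-87961288 and chr1:87961227-87961248 on the + strand, and the insert of the vector was not read. The seeds of the 2 arms differ.
rno-miR-330-3p: gCAAAGCAcagggccugcagaga
rno-miR-330-5p: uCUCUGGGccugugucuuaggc

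Col1a2, Col5a1 and Col6a1, which moved apart with miR-330, and Postn are shown with the 150 bases before their start as annotated in RefSeq. The bases run 5′ to 3′ on the strand of the gene. Of the 10 genes of the set 6 had a promoter entry. Searched on both strands were the TATA box as TATAAA, the CCAAT box as its own letters and the GC box as GGGCGG, which were found in 8.0%, 23.5% and 26.0% of 33469 rat promoters of this length, and matches are in capitals. Col1a2, which fell, and Col6a1, which rose, held none of these letters, Col5a1, which rose, held 1 GGGCGG, and Postn, which stayed inside the fold in the cluster and over all clusters, held 1 TATAAA. Col5a2 and Col6a3, which also had an entry and are not shown, held none of them. A match is a description of letters in this window. The annotated starts were not checked against transcripts, so a window can lie inside transcribed sequence. Letters missing from a window therefore do not show that the promoter of the gene lacks them. The windows, on GRCr8, are chr4:33518407-33518556 (+) for Col1a2, chr3:31606730-31606879 (+) for Col5a1, chr20:11905540-11905689 (+) for Col6a1 and chr2:140677911-140678060 (+) for Postn.
Col1a2: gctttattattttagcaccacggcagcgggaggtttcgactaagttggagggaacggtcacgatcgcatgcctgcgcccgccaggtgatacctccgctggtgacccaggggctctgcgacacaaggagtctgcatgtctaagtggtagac
Col5a1: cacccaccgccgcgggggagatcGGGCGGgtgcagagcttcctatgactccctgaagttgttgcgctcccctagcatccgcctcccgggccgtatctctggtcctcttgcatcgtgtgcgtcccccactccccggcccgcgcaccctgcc
Col6a1: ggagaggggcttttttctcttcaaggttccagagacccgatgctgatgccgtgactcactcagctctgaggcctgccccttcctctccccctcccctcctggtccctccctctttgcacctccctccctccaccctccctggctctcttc
Postn: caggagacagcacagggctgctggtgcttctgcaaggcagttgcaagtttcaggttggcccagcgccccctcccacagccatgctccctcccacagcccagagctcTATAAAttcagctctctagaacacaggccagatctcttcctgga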

How the data were processed

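The deposited tables, 1 per library, hold a normalized signal, the mean count of each gene in each cluster, with the authors' log2 fold changes and adjusted p-values of each cluster against the others, which were not used. The authors name Cell Ranger 7.0, STAR and Seurat 4.0.1 and the builds GRCh38 and mm10, while the identifiers are rat Ensembl genes; the rat build is not given in the sources used. Each mean divided by the smallest mean above 0 of its cluster gave UMIs, and 100% came out whole within 0.001. Deposited means add up to 4541, 5200 and 6123.5 per cluster, so their ratios between libraries differ from CPM ratios by a constant. UMIs of identifiers with the same name were added.

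The members and lists were chosen with earlier results of these data known. Log2 ratios are ratios of CPM with 0.5 UMI added to each count. All genes means those with at least 50 UMIs in the libraries compared. Beside the members, the rule for naming genes took from each pathway list the 3 genes with the most UMIs in the chondrocyte-marker cluster and up to 2 in each direction per comparison with the largest ratios, at least 50 UMIs and levels apart; from marker lists the most abundant gene and those at 0; and the 8 genes most like the set, among genes with at least 200 UMIs, on log levels with 1 CPM added. Of these the text gives a part. Of 155 markers in 17 lists, 147 were found by name. Alternatives were the deposited mean counts, ratios centred on the median of all genes, other denominators, 5 UMIs added, a fold of 2, minimums of 10 and 500 UMIs, other clusters only, and shares without the type I chains. The code was tested on simulated data. Python 3.11.15, numpy 2.4.6, pandas 2.3.3 and scipy 1.17.1 were used.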

Additional observations from a re-analysis of the deposited data

Results flagged for a closer look

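Col5a2, a type V chain, had log2 ratios of opposite sign in the parts of the libraries when UAC was compared with sham. In the chondrocyte-marker cluster its log2 ratio was 0.146, from 1078 to 1193 CPM, and in the other clusters together it was −1.483, from 2.62 to 0.935 CPM on 180 and 81 UMIs. The ratio in the cluster was inside the fold and was 0.01 after centring. Without cluster 14 of sham, which carried 87 of the 180 UMIs, the ratio in the other clusters was −0.57, inside the fold, with intervals of the levels that overlap. Each group had 1 library, and the difference between the parts was not tested.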

How the results depend on the processing

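The summed level of the set in UAC against sham was below 0 under every alternative run, over all clusters and in the chondrocyte-marker cluster. Over all clusters its log2 ratio of −1.10 became −0.909 on the deposited mean counts, −1.09 when centred on the median of all genes, −1.11 with the members left out of the denominator, −1.48 in the other clusters only, and −0.970 in the other clusters without the raised ones, an alternative chosen after seeing the data. In the cluster −0.250 became −0.0548 on the deposited mean counts, −0.386 when centred and −0.267 with the members left out. With miR-330 against UAC the sum was near 0 and its direction depended on the scale. Over all clusters −0.0547 became 0.181 on the deposited mean counts, −0.187 when centred, 0.420 in the other clusters only, and −0.335 there without the raised ones. In the cluster 0.0255 became 0.261 on the deposited mean counts and 0.00930 when centred. A scaling adds the same amount to every gene of a comparison by construction, and for the other shifts the cause was not tested.

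With a fold of 2 in place of 1.5 fewer genes passed. UAC against sham over all clusters then had 0 higher, not 1, and 2 lower, not 7, which were Col1a1 and Col1a2, against 2.29% of all genes higher and 1.87% lower at that fold. With miR-330 1 gene was higher, Col5a1, not 2, and 0 were lower, not 1, over all clusters and in the cluster alike, against 2.30% and 0.894% of all genes over all clusters and 1.82% and 2.40% in the cluster. On the deposited mean counts miR-330 against UAC had 4 higher and 0 lower in both, against 24.2% and 1.53% of all genes over all clusters and 12.6% and 3.52% in the cluster, and when centred it had 2 lower over all clusters, against 4.43% of all genes. Adding 5 UMIs, or leaving haemoglobin, immunoglobulin and mitochondrial genes out of the denominator, moved none of 12 summed levels and counts and none of 36 values of single genes beyond counting error or 1.5 times.

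Of 36 log2 ratios of single genes 32 moved beyond counting error on the deposited mean counts, 18 when centred and 1 with the members left out of the denominator. In the other clusters 17 of 18 moved, and 14 of 18 without the raised ones, where 1 more changed direction. The percentages of all genes past the fold stayed within 1.5 times for all 8 with a minimum of 10 UMIs and for 4 of 8 with 500. Leaving out the type I chains moved 20 of 28 log2 ratios of shares.

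Of the single genes past the fold 1 changed direction: Col5a1 with miR-330 against UAC, at 1.06 over all clusters, was at −0.463 (−1.19 to 0.23) in the other clusters without the raised ones, on 42 and 31 UMIs. That interval spans both directions, so the sign there is not settled beyond counting error. Genes inside the fold changed direction as well. On the deposited mean counts these were Col3a1, Col6a2 and Postn in the cluster for UAC against sham, Col6a2 and Postn in the cluster for miR-330 against UAC, and Col1a1 and Col6a2 over all clusters in that comparison. There Col1a1 also went from −0.02 over all clusters to 0.56 in the other clusters only. The cause was not tested. The cluster with the most osteogenic or fibroblast markers was the chondrocyte-marker cluster itself in each library, so that alternative gave no further value. No paired analysis was possible because each group had 1 library, and no library could be left out. Counting error is small for the abundant chains and wide for Col14a1 and for members outside the chondrocyte-marker cluster, where Col5a1, Col6a1 and Col14a1 had between 20 and 150 UMIs in a library. Cells per cluster and UMIs per cell are not known.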
